A study of Rattus norvegicus with 19 samples.

Results

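Transcripts of 3 NMDA receptor subunits were examined in the paraventricular nucleus (PVN) of the rat hypothalamus: Grin1 (ENSRNOG00000011726), Grin2a (ENSRNOG00000033942) and Grin2b (ENSRNOG00000008766). They were picked by their Ensembl gene identifiers, with earlier results of these data known, and all 3 were found among the 30560 genes of the count table. The animals were rats aged 14 weeks, which had carried an implanted telemetry probe for blood pressure. They formed 4 groups, with 4 Wistar males, 5 Spontaneously Hypertensive Rat (SHR) males, 5 Wistar females and 5 SHR females. SHR is an inbred strain in which blood pressure rises without any treatment. The Wistar rats were normotensive controls, so strain and blood pressure differ together between the groups and cannot be told apart. Females were in dioestrus when their blood pressure was recorded. Each library was made from polyadenylated RNA of bilateral tissue punches of 1 animal.

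The NMDA receptor is a glutamate-gated cation channel with high permeability to calcium. Functional channels need GluN1, the product of Grin1, which binds the co-agonists glycine and D-serine. It is combined with GluN2 subunits, which bind glutamate and set how fast the channel closes and how strongly magnesium blocks it. GluN2A, from Grin2a, gives fast-closing channels, while GluN2B, from Grin2b, gives slow-closing channels and predominates early in brain development. In the PVN, NMDA receptors carry excitatory input to presympathetic and neuroendocrine neurons. A punch holds neurons and glia together, so fewer cells of a type and less RNA per cell cannot be told apart in these values.

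Library totals lay between 44943945 and 58793511 counts. Counts were expressed as CPM (counts per 1000000 counts of a library) after scaling by the trimmed mean of M-values (TMM), which adjusts for differences in RNA composition between libraries. As a check of the sex labels, Ddx3y (ENSRNOG00000057231), a Y-linked helicase, was at 109 CPM or more in every male and at 0.224 CPM or less in every female. The files pair no identifier with a symbol, so marker genes of the PVN or of its cell types were not checked. Raw counts per library were 14856 to 21964 for Grin1, 368 to 1171 for Grin2a and 455 to 1149 for Grin2b. At these depths counting error alone gives a coefficient of variation (CV) of at most 0.82% for Grin1, 5.21% for Grin2a and 4.69% for Grin2b in any library. Of all counts between 1 and 100, 73.9% were even, and the counting settings are not stated. If a read pair gave 2 counts, these CVs would reach 1.16%, 7.37% and 6.63%. CPM is not corrected for transcript length, so CPM values are compared here between libraries for a given subunit and not between subunits.

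Grin1 was the steadiest of the subunits, and its 4 group means lay between 340.4 and 369 CPM. Wistar males had 376, 359, 352 and 390 CPM in replicates 2 to 5. In SHR males, replicates 1 to 5 had 370, 375, 312, 345 and 299.8 CPM. Thus 3 of 5 SHR males lay below the lowest Wistar male, but the other two lay within the Wistar range. Wistar females had 406, 361, 334, 353 and 373 CPM in replicates 1 to 5, and SHR females had 343, 329, 394, 334 and 358 CPM. From the highest, the means were 369 ± 17.04 CPM for Wistar males, 365 ± 26.8 for Wistar females, 351 ± 26.3 for SHR females and 340.4 ± 33.8 for SHR males (SD over 4, 5, 5 and 5 animals). Neighbours in this order overlapped and did not differ beyond their spread.

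Grin2a was higher on average in SHR than in Wistar in each sex, but the libraries of the strains overlapped. Wistar males were close together, with 13.3, 13.3, 12.1 and 12.2 CPM in replicates 2 to 5. SHR males had 12.3, 17.04, 14.97, 16.7 and 12.6 CPM in replicates 1 to 5, so 3 of 5 exceeded every Wistar male. Wistar females had 8.24, 12.5, 12.96, 9.28 and 12.7 CPM, and included the lowest library of the series. The SHR females, at 10.4, 9.95, 24.1, 17.7 and 13.7 CPM, spanned a 2.43-fold range, and replicate 3 had the highest Grin2a level of all 19 libraries. Again 3 of 5 SHR females exceeded every Wistar female, while the other two lay within the Wistar range. From the highest, the means were 15.2 ± 5.90 CPM for SHR females, 14.7 ± 2.23 for SHR males, 12.7 ± 0.679 for Wistar males and 11.1 ± 2.21 for Wistar females (SD over 5, 5, 4 and 5 animals). Neighbours in this order overlapped.

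Grin2b followed another order, with opposite signs of the strain difference in males and females. Its level was 14.2, 15.5, 14.5 and 17.6 CPM in Wistar male replicates 2 to 5. In SHR males it was 11.4, 17.4, 12.99, 16.8 and 11.4 CPM in replicates 1 to 5, which placed 3 of 5 below every Wistar male. Wistar females had 10.2, 10.6, 12.7, 14.4 and 17.4 CPM, and SHR females had 12.9, 10.9, 23.7, 18.9 and 14.6 CPM. As with Grin2a, SHR female replicate 3 was the highest library of the series, followed by SHR female replicate 4. The highest mean was 16.2 ± 5.11 CPM for SHR females, followed by 15.5 ± 1.51 for Wistar males, 13.98 ± 2.90 for SHR males and 13.1 ± 2.95 for Wistar females (SD over 5, 4, 5 and 5 animals). No pair of neighbours in this order was separated.

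**Figure D1:**
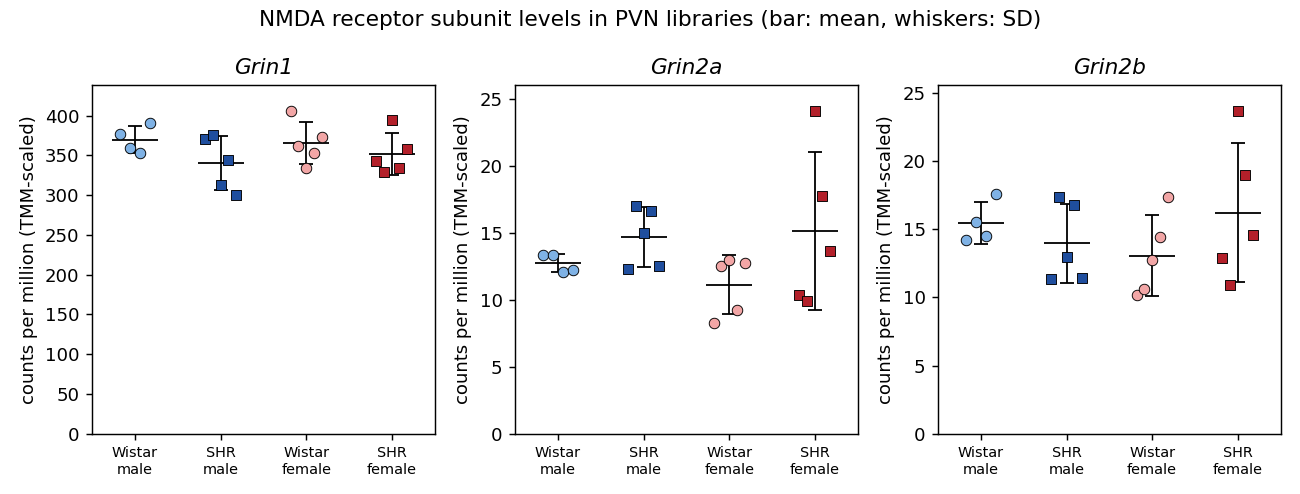
Levels of Grin1, Grin2a and Grin2b in TMM-scaled CPM, with 1 point per library, the group mean as a bar and the SD as whiskers, in Wistar and SHR males and females. Grin1 is steady across groups, whereas Grin2a and Grin2b spread most in SHR females, where replicate 3 reaches 24.1 and 23.7 CPM.

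Each comparison was tested with edgeR's quasi-likelihood test over all genes with a mean above 5 normalized counts, and a gene was called at a Benjamini-Hochberg adjusted p under 0.05. In SHR against Wistar males, 12% of 17461 genes were called (2102 genes), and 0 of the 3 subunits were. The unadjusted p was under 0.05 for 28.6% of all genes tested and for 0 of the 3 subunits. Grin1 had a log2 fold change of -0.13 (standard error 0.07, 95% interval -0.28 to 0.03, adjusted p = 0.259). For Grin2a the value was 0.20 (standard error 0.11, 95% interval -0.03 to 0.43, adjusted p = 0.238), which is a 1.15-fold difference. Grin2b was at -0.15 (standard error 0.13, 95% interval -0.44 to 0.14, adjusted p = 0.483). All 3 intervals included 0. The unadjusted p of Grin2a was under 0.05 when SHR male replicate 1 or 5 was left out, with log2 fold changes of 0.26 and 0.25 and adjusted p of 0.140 and 0.146. Without SHR male replicate 2 or 4 the log2 fold change of Grin2a fell to 0.15 in both cases, with adjusted p of 0.398 and 0.397. DESeq2's Wald test called 2979 genes, and 0 of the 3 subunits.

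In SHR against Wistar females, 2.32% of 17404 genes were called (403 genes), and again 0 of the 3 subunits, with 17% of genes and 0 subunits at an unadjusted p under 0.05. Grin2a had its largest mean difference here, with a log2 fold change of 0.44, or 1.36-fold, but also its largest error among the 4 group comparisons (standard error 0.24, 95% interval -0.08 to 0.96, adjusted p = 0.374). Without SHR female replicate 3 this value was 0.22, and without SHR female replicate 1 or 2 it was 0.55 or 0.56, with an unadjusted p under 0.05 and adjusted p of 0.306 and 0.273. Grin2b had a log2 fold change of 0.31 (standard error 0.21, 95% interval -0.15 to 0.76, adjusted p = 0.487), which was 0.13 without the same library. Grin1 was at -0.06 (standard error 0.07, 95% interval -0.21 to 0.09, adjusted p = 0.684). On the linear scale, the intervals in females run from 0.862-fold to 1.06-fold for Grin1, from 0.949-fold to 1.94-fold for Grin2a and from 0.903-fold to 1.70-fold for Grin2b. The interval of Grin1 was thus the narrowest, and those of the GluN2 subunits extended to larger increases.

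Sex differences within a strain were examined next. Between Wistar females and males, 0.0629% of 17490 genes were called (11 genes), and 4.08% had an unadjusted p under 0.05, with 0 of the 3 subunits in either count. The log2 fold changes of females against males were -0.02 for Grin1 (95% interval -0.16 to 0.13, adjusted p = 0.970), -0.19 for Grin2a (95% interval -0.51 to 0.12, adjusted p = 0.909) and -0.24 for Grin2b (95% interval -0.58 to 0.10, adjusted p = 0.909). Between SHR females and males, 0.0694% of 17285 genes were called (12 genes), and 14.9% had an unadjusted p under 0.05, again with 0 of the 3 subunits in either count. The values were 0.05 for Grin1 (95% interval -0.10 to 0.21, adjusted p = 0.780), 0.05 for Grin2a (95% interval -0.41 to 0.52, adjusted p = 0.934) and 0.22 for Grin2b (95% interval -0.20 to 0.64, adjusted p = 0.628). Grin2a turned to -0.18 in this comparison without SHR female replicate 3.

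The interaction term of a model on all 19 libraries asked whether the strain difference itself differed between females and males. With edgeR 0 of 17432 genes were called (0.00%), while 2332 genes (13.4%) had an unadjusted p under 0.05 and DESeq2 called 48. None of the 3 subunits was called by either tool. Grin2b had the largest interaction of the subunits, since its mean was lower in SHR males and higher in SHR females than in the Wistar groups, with a log2 difference of 0.46 (standard error 0.27, 95% interval -0.11 to 1.04, adjusted p = 0.443). With single libraries left out, the Grin2b interaction ranged from 0.29 to 0.58 and was lowest without SHR female replicate 3. The interaction was 0.25 for Grin2a (standard error 0.29, adjusted p = 0.698) and 0.07 for Grin1 (standard error 0.10, adjusted p = 0.755). For Grin2a it fell to 0.02 without SHR female replicate 3.

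**Figure D2:**
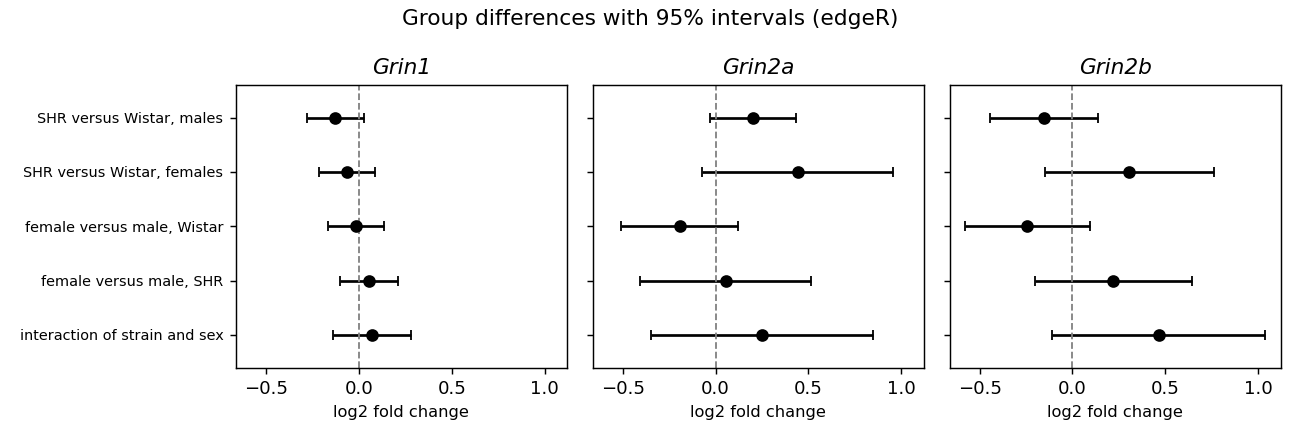
Log2 fold changes of Grin1, Grin2a and Grin2b from edgeR in the 4 group comparisons and the interaction, where points are estimates and whiskers are 95% intervals. Every interval includes 0, and those of Grin1 are the narrowest.

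Since the makeup of a receptor depends on the proportion of its subunits, ratios of counts were formed within each library. Such a ratio needs no scaling between libraries. It still depends on the length of both transcripts, so only its changes between libraries are read. Differences of the mean log2 ratio were tested by two-sided exact permutation of the animals for 3 ratios in 4 comparisons, 12 tests in all.

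The ratio of Grin2a to Grin2b separated SHR from Wistar males. Wistar males had ratios of 0.938, 0.858, 0.832 and 0.697 in replicates 2 to 5. SHR males had ratios of 1.08, 0.982, 1.15, 0.994 and 1.10 in replicates 1 to 5, and the lowest of them lay above the highest Wistar male. These closest libraries were replicate 2 of each strain, at 0.982 and 0.938. Counting error alone gives CVs of 3.26% for Grin2a and 3.23% for Grin2b in the SHR library. In the Wistar library it gives 3.78% and 3.66%. A ratio carries the errors of both counts, so the counts do not settle the order of these libraries. The ratio averaged 1.06 for SHR males (SD 0.0723, n = 5) against 0.831 for Wistar males (SD 0.1005, n = 4). On the log2 scale the difference was 0.36 (standard error 0.10), or 1.28-fold, and the exact permutation test gave p = 0.0159, which is the lowest value possible for groups of 4 and 5. Adjusted over the 12 ratio tests by the Benjamini-Hochberg method, this exact p became 0.143 and did not pass. Leaving out any single male left the difference between 0.28 and 0.42, with exact permutation p between 0.0286 and 0.0357. As the full groups do not overlap, these p-values were fixed at the lowest possible for the remaining animals. They add no support.

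The same ratios were formed with every other tested gene as partner, as a background for this separation. When each of 17460 other genes was divided by Grin2b, the ranges of SHR and Wistar males did not overlap for 4.20% of the genes, and SHR males lay entirely above for 2.58%, of which Grin2a was 1. When Grin2a was divided by each of the other genes, the ranges did not overlap for 9.98%, and SHR males lay above for 9.19%, of which Grin2b was 1. For the CPM values themselves, 0 of the 3 subunits had ranges that did not overlap in any of the 4 comparisons. Among all genes tested this was so for 14.7% between males of the strains, 5.21% between females of the strains, 1.53% between the sexes in Wistar and 3.25% between the sexes in SHR.

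In females the Grin2a to Grin2b ratio did not separate the strains. Wistar females ranged widely, at 0.809, 1.18, 1.02, 0.644 and 0.732 in replicates 1 to 5. The SHR females were at 0.805, 0.909, 1.02, 0.937 and 0.938, within the Wistar range. The ratio averaged 0.922 for SHR females (SD 0.0771, n = 5) against 0.876 for Wistar females (SD 0.218, n = 5), a log2 difference of 0.10 (standard error 0.17, exact permutation p = 0.579, adjusted p = 0.772). SHR female replicate 3, the library with the highest levels of both GluN2 subunits, also had the highest ratio of the SHR females, at 1.02. The other SHR females lay between 0.805 and 0.938. Whether the strain difference of this ratio differed between females and males was tested by relabelling sex within strain in all 31752 ways, a test chosen after the ratios had been seen. The difference between the sexes was -0.26 on the log2 scale (exact permutation p = 0.232), so a difference between males and females was not shown.

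Within SHR, the Grin2a to Grin2b ratio was lower in females than in males. Only replicate 3 of the 5 SHR females, at 1.02, lay within the male range, which began at 0.982. The log2 difference of females against males was -0.21 (standard error 0.07, exact permutation p = 0.0238), and after adjustment over the 12 tests p was 0.143, which did not pass. In Wistar the sexes overlapped widely, with a log2 difference of 0.05 (standard error 0.18, exact permutation p = 0.825).

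The ratio of Grin2a to Grin1, the obligatory subunit, was also higher on average in SHR males. It was 0.0354, 0.0371, 0.0343 and 0.0314 in Wistar male replicates 2 to 5 and 0.0332, 0.0454, 0.0480, 0.0484 and 0.0419 in SHR male replicates 1 to 5. Thus 4 of 5 SHR males exceeded every Wistar male, and SHR male replicate 1 lay within the Wistar range. The log2 difference was 0.32 (standard error 0.11, exact permutation p = 0.0635, adjusted p = 0.254). Without SHR male replicate 1 it was 0.41 (exact permutation p = 0.0286), whereas leaving out any other male gave 0.27 to 0.35 (exact permutation p from 0.107 to 0.143). Since only SHR male replicate 1 lay within the Wistar range, the exact permutation p without it was fixed at the lowest possible and adds no support. SHR females averaged 0.0426 (SD 0.0140, n = 5) against 0.0308 for Wistar females (SD 0.00743, n = 5). This log2 difference of 0.44 was not separated from 0 by the test (standard error 0.27, exact permutation p = 0.159, adjusted p = 0.476).

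The ratio of Grin2b to Grin1 was nearly equal in Wistar and SHR males, at 0.0418 ± 0.00313 (SD, n = 4) and 0.0411 ± 0.00712 (SD, n = 5), with a log2 difference of -0.04 (standard error 0.13, exact permutation p = 0.825). Its sign turned without SHR male replicate 1, at 0.06. The ratio averaged 0.0457 for SHR females (SD 0.0120, n = 5) against 0.0360 for Wistar females (SD 0.00869, n = 5), a log2 difference of 0.34 (standard error 0.23, exact permutation p = 0.198, adjusted p = 0.476). Of the 12 ratio tests, 2 had an exact permutation p under 0.05 and 0 passed after adjustment.

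**Figure D3:**
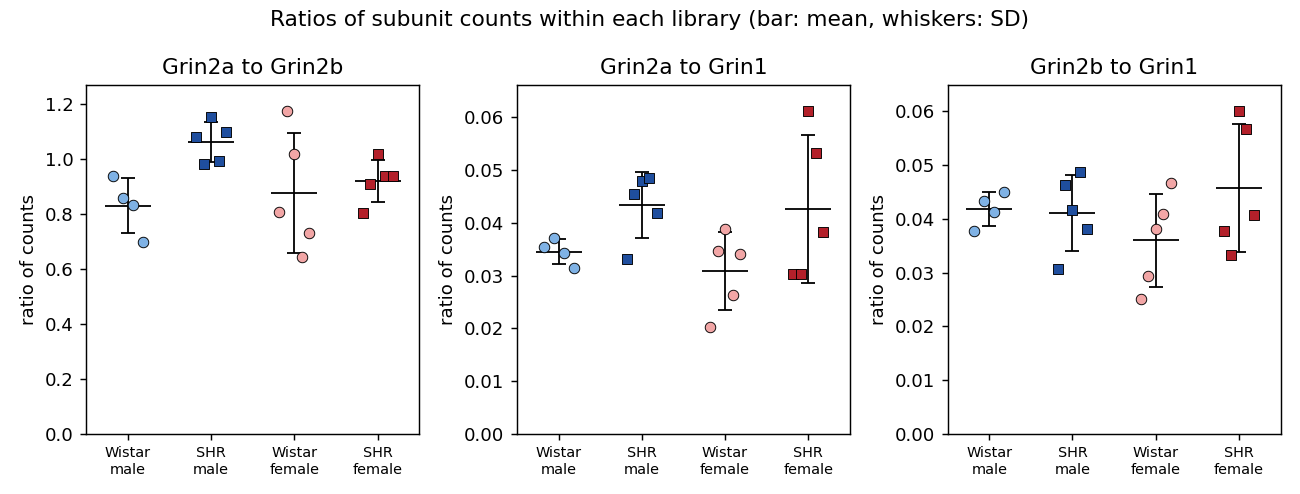
Ratios of counts within each library for Grin2a to Grin2b, Grin2a to Grin1 and Grin2b to Grin1, with 1 point per library, the group mean as a bar and the SD as whiskers. In the first panel every SHR male (0.982 to 1.15) lies above every Wistar male (0.697 to 0.938), while the female groups overlap.

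Taken over all 19 libraries, Grin2a and Grin2b varied together, whereas Grin1 did not follow them closely. By the SDs given below, they moved in step in the SHR groups but not clearly in the Wistar groups. The correlation was not tested within single groups. Over the 19 libraries, log2 CPM of Grin2a and Grin2b had Pearson's r = 0.749 (permutation p = 0.00024, adjusted over 3 pairs p = 0.00072) and Spearman's rho = 0.630 (permutation p = 0.00443, adjusted p = 0.0133). With the mean of each group subtracted and libraries shuffled only within groups, r was 0.792 (permutation p = 0.00265, adjusted p = 0.00795) and rho was 0.791 (permutation p = 0.00211, adjusted p = 0.00633). Without SHR female replicate 3 and Wistar female replicate 1, which lay farthest from the median of Grin2a, r over the libraries was 0.534. After subtraction of group means the 2 farthest were SHR female replicates 2 and 3, and r without them was 0.640. Both values of a library share its scaling, depth and dissection.

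Grin1 and Grin2a had r = 0.01 over the 19 libraries (permutation p = 0.978) and rho = -0.0193 (permutation p = 0.939). For Grin1 and Grin2b, r was 0.293 (permutation p = 0.224, adjusted p = 0.336) and rho was 0.232 (permutation p = 0.340, adjusted p = 0.510). Without the 2 libraries farthest from the median of Grin1, SHR male replicates 3 and 5, these r values were 0.0571 and 0.163. With group means subtracted they were 0.223 (permutation p = 0.407) and 0.350 (permutation p = 0.193), with rho of 0.125 (permutation p = 0.654) and 0.218 (permutation p = 0.430). The relation of Grin1 and Grin2b depended on the scaling, since CPM from library totals alone gave r = 0.473 (permutation p = 0.0406).

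**Figure D4:**
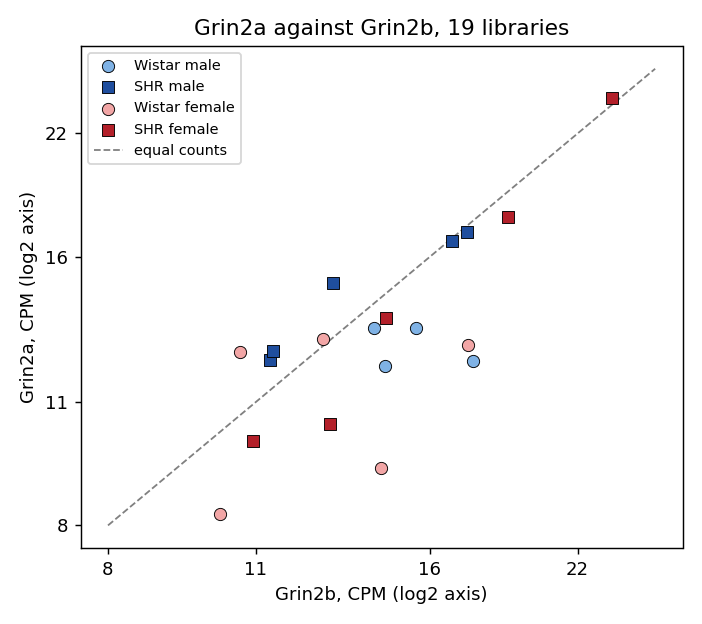
Grin2a against Grin2b in TMM-scaled CPM on log2 axes, with 1 point per library and a dashed line where both have equal counts. The 4 Wistar males lie below the line and the 5 SHR males on or around it, and SHR female replicate 3 is at the top right with 24.1 and 23.7 CPM.

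This shared variation was widest in SHR females. The SD of log2 CPM there was 0.54 for Grin2a and 0.44 for Grin2b, against 0.10 for Grin1 and a median of 0.16 over 17432 genes. Both GluN2 subunits varied more in that group than most genes, as 88.2% of genes had a smaller SD than Grin2a and 84.2% a smaller SD than Grin2b. The SD of the log2 ratio of Grin2a to Grin2b was only 0.12 in SHR females, since both moved in step. SHR males had SDs of 0.22 for Grin2a and 0.30 for Grin2b, and 0.10 for the ratio. In Wistar females the SDs were 0.30 and 0.32 and that of the ratio was 0.35, so the ratio varied as much as either subunit. For Wistar males the SDs were 0.08 and 0.14, and the ratio, at 0.18, varied more than either subunit. The CV of CPM in SHR females was 38.9% for Grin2a and 31.5% for Grin2b, many times the counting error, while in Wistar males it was 5.33% and 9.80%. Counting alone gives 3.85% for Grin2a in Wistar males, or 5.45% if a pair gave 2 counts, so the spread of Grin2a in that group was close to its counting error. SHR males lay in between, with 15.2% and 20.7%. Grin1 had CVs between 4.61% and 9.92% in the 4 groups.

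The likeness of each subunit's pattern to that of other genes was measured as Pearson's r of log2 CPM over the 19 libraries, among the 17431 other genes with a mean above 5 normalized counts. The gene most like Grin2a was ENSRNOG00000011076 (r = 0.903), the gene most like Grin2b was ENSRNOG00000052157 (r = 0.919) and the gene most like Grin1 was ENSRNOG00000045949 (r = 0.890). Grin2b ranked 88 among the genes most like Grin2a, with 0.499% of genes closer, and Grin2a ranked 192 for Grin2b, with 1.10% closer. Grin1 ranked 8554 for Grin2a and 4057 for Grin2b. After subtraction of group means, Grin2b ranked 47 for Grin2a and Grin2a ranked 138 for Grin2b. These ranks describe the libraries, which share depth and dissection across all genes.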

How the data were processed

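Poly(A)-enriched, strand-specific libraries were read in pairs. The authors trimmed reads with Trimmomatic (Phred threshold 30), aligned them with STAR to Rn7 and deposited raw featureCounts counts per gene, without normalization. Tool versions, counting settings and annotation release were not given in the sources used here. All 19 columns were mapped to groups by library name, and the library, made from 1 animal, was the unit of every test. Tests used R 4.3.3, edgeR 4.0.16 (TMM, quasi-likelihood) and, as an alternative, DESeq2 1.42.0 on the groups compared, for genes with a mean above 5 normalized counts (median-of-ratios). Intervals of 95% came from the edgeR standard error and its degrees of freedom. Ratios, exact permutation tests and correlations (100000 resamples) were computed in Python 3.11.15 (numpy 2.4.6, scipy 1.17.1, pandas 2.3.3), and plotted with matplotlib 3.10.9. The count tests were first tested on simulated data with 200 changed genes. Of genes changed 1.5-fold, 64.5% were recovered in the male strain comparison and 54.5% in the female one. At 2-fold the shares were 78% and 80%. Smaller changes were not simulated, so a subunit that was not called may still differ by such an amount. As not all genes changed 1.5-fold or 2-fold were recovered, the lack of a call alone does not exclude changes of these sizes either.

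The 3 subunits were always named, with the gene of most similar pattern for each. The members, lists and comparisons were chosen with earlier results of these data known. The RefSeq table used here matched 0 of the 30560 identifiers, so lists of other glutamate receptor genes and of cell type markers were not analysed here, nor were levels per transcript length. Alternatives were DESeq2 with Benjamini-Hochberg or Bonferroni adjustment, other scalings and filters, a single fit of all 4 groups, a replicate block, linear ratios and leaving out each library.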

Additional observations from a re-analysis of the deposited data

How the results depend on the processing

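The subunits were called in 0 of 5 comparisons under every tool, scaling and filter run and with any single library left out. The sign of a strain difference of a subunit did not change under any of these. The sex difference of Grin2a in SHR turned from 0.05 to -0.0107 with the replicate number as a block. Same-numbered libraries deviated with r of -0.17 to 0.33 over genes. Between strains, 5 of 8 male and 6 of 10 female libraries correlated best with their own number, among 4 and 5 candidates each. Between sexes 3 of 8 (Wistar) and 3 of 10 (SHR) did, also among 4 and 5. Pairing was not settled, and neither the reported fits nor the exact permutation tests used it. The block called 32 interaction genes against 0, and the other counts stayed within 1.5 times. The count of subunits at an unadjusted p under 0.05, 0 of 3 in each reported comparison, did change. Between males it included Grin1 on library totals (-0.19, adjusted p = 0.102), Grin1 and Grin2a under the block (-0.16 and 0.25, adjusted p = 0.161 and 0.121) and Grin2a without SHR male replicate 1 or 5. Between females it included Grin2a with all groups fitted together (0.45, adjusted p = 0.193) and without SHR female replicate 1 or 2. Grin2b joined the Wistar sex comparison without Wistar female replicate 5 (-0.37, adjusted p = 0.477), and the interaction without that library or SHR female replicate 2 (both 0.58, adjusted p = 0.202 and 0.340). DESeq2 called 2979 genes between males of the strains (2102 in the reported fit), 1097 between females (403), 20 between sexes in Wistar (11), 303 between sexes in SHR (12) and 48 for the interaction (0). With Bonferroni adjustment DESeq2 called 542 between males, 234 between females, 30 between sexes in SHR and 9 for the interaction. All 4 groups in 1 fit gave 1103 between females. On CPM from library totals alone, Grin1 and Grin2b had r = 0.473, and 0.508 with group means subtracted (permutation p = 0.0416). The causes were not tested. With a single library left out, calls ranged from 1203 to 1883 between males of the strains, from 174 to 811 between females and from 0 to 3 for the interaction. Counts moved by over 1.5 times without Wistar male replicate 3 (1397), SHR male replicates 1 (1377) and 3 (1203), Wistar female replicate 5 (811) and SHR female replicates 1 (200), 2 (212), 4 (174) and 5 (252). Log2 differences that crossed 0 were the sex difference of Grin1 in Wistar (-0.0576 to 0.0144) and of Grin2a in SHR (-0.177 to 0.172), and among ratios the sex differences of Grin2a to Grin2b in Wistar (-0.0662 to 0.151) and of Grin2a to Grin1 in SHR (-0.218 to 0.0366) and the male strain difference of Grin2b to Grin1 (-0.108 to 0.0588). The male strain difference of Grin2a to Grin1 ranged from 0.272 to 0.411. No library stood apart from its group in any of the 24 sets of levels and ratios by Dixon's criterion.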
